A study of Mus musculus with 4 samples.

Results

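The genes of the cytosolic ribosomal proteins were followed in sorted nuclei of the adult mouse hippocampus. Members were chosen by symbol: Rpl or Rps followed by a digit, or Rpsa, Rplp0, Rplp1 or Rplp2, without rows named as pseudogenes and without the Rps6 kinases. The rule found 86 of 25567 genes in the count tables. Of these, 31 encode core proteins of the small subunit and 46 core proteins of the large subunit. The other 9 are paralogues, a retrogene or a binding partner of a core protein (Rpl10l, Rpl3l, Rpl39l, Rpl22l1, Rpl7l1, Rpl36al, Rps27l, Rps27rt and Rps19bp1). A further 13 rows named as ribosomal protein pseudogenes were left out of the members.

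The study made 4 libraries from mice aged 8.5 months, with 1 nucleus sorted per well and amplified by Smart-seq2, a full-length method without molecular identifiers. They were EdU+ nuclei of Fasn-R1812W mice, EdU+ nuclei of wild-type (WT) mice, NeuN+ nuclei of Fasn-R1812W mice and NeuN+ nuclei of WT mice. Fasn-R1812W changes an amino acid of Fasn, which makes fatty acids in the cytosol. EdU is a thymidine analogue that enters DNA as it is copied. For the EdU+ libraries it was given at 100 mg/kg, 2 times a day for 3 days, with isolation on day 4. NeuN is a nuclear protein of mature neurons. The number of mice behind each library is not given in the sources used here, so each library was counted as 1 sample. No group had a replicate library. The spread behind the p-values for gate and genotype is how far the gate effect differed between genotypes. For classes it is how far class differences varied between the libraries of a gate, which differ in genotype.

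Cytosolic ribosomes translate the messages of the nucleus, and each holds a small subunit that reads the message and a large subunit that joins the amino acids. Ribosomal protein genes are transcribed at a high rate in growing cells, and most of their messages start with a run of pyrimidines at the 5′ end, the TOP motif, through which mTOR signalling sets their translation. In nuclei, the reads come from new and unexported transcripts, plus whatever cytoplasmic RNA stays attached. In sums over nuclei, a different make-up of cell types and a different level per nucleus cannot be told apart, and results were also followed by class of nucleus.

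Nuclei with at least 50000 reads and at least 1000 genes were kept, with mitochondrially encoded genes counted in. They were 348 and 167 EdU+ nuclei (Fasn-R1812W, WT) and 301 and 314 NeuN+ nuclei (Fasn-R1812W, WT). Their medians were 224967 and 80771 reads in the EdU+ libraries and 175328 and 213337 reads in the NeuN+ libraries. The WT EdU+ library stood apart in depth, with a median of 1298 genes per nucleus against 3006 to 4417 in the others, and 217 of its wells were left out. Nuclei were placed in classes by counts of marker genes and are called leukocyte-like, microglia-like and so on. In the EdU+ gate 24 of 24 leukocyte markers and 13 of 13 microglia markers were at least 2-fold up in their class, as were 15 of 15 markers of oligodendrocyte precursors and 11 of 12 of neuroblasts. Among NeuN+ nuclei 12 of 12 granule, 14 of 14 interneuron, 9 of 10 CA1 and 6 of 8 subicular markers were. The same markers placed the nuclei, so these counts and the marker sums are no independent check of the class names. The leukocyte markers summed to 30915 and 11919 CPM (counts scaled to the same total of nuclear-encoded reads in each sum) in leukocyte-like nuclei (Fasn-R1812W, WT), against 76.4 and 32.0 CPM in oligodendrocyte precursor-like nuclei. In the WT leukocyte-like class, which is 5 nuclei, 10 of the 24 were at 0. The 6 erythroid markers (haemoglobins and other red cell genes) summed to 2.35 and 711 CPM in leukocyte-like nuclei (Fasn-R1812W, WT; 2 of 6 at 0 in each), to 12.6 and 27.0 CPM in oligodendrocyte precursor-like nuclei and to 340 and 0 CPM in neuroblast-like nuclei. Their part in the class values was not tested. The astrocyte-like EdU+ class, with 9 of 12 markers at least 2-fold up, had 0 of its own markers among its top 10 genes and is not described. The neuroblast-like class had 1 of its own there. No doublet caller was run.

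3 promoters are shown for the members that carry the results below: Rpl13, higher in EdU+ nuclei, Rps27, higher in immune EdU+ nuclei, and Rplp0, lower in interneuron-like nuclei. For each comparison in which any member passed the test, they are the called member with the highest level among those with a listed promoter. Each stretch runs from 100 bases before to 20 bases after the annotated start (RefSeq, GRCm38.p6), at chr8:123102250-123102369 on the plus strand for Rpl13, chr3:90213629-90213748 on the minus strand for Rps27 and chr5:115559367-115559486 on the plus strand for Rplp0. Capitals mark a run of at least 8 pyrimidines (C or T) near the start and, in Rps27, the letters AAGATGGC.
Rpl13: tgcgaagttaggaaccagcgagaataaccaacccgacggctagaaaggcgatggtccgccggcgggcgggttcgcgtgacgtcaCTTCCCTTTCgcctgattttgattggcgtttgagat
Rps27: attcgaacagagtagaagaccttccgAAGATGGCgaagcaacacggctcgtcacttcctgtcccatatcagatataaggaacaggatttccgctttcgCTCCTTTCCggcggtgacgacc
Rplp0: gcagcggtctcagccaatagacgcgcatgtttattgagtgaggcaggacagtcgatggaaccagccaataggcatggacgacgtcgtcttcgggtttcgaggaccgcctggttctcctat
A pyrimidine run of this length stood on the coding strand, from 30 bases before to 30 bases after the start, in 29 of the 57 core members with a listed promoter (50.9%), against 22.8% of 27025 listed promoters. CCGGAAG, a core of ETS-factor sites, was found on either strand within 250 bases before to 50 after the start in 23 of the 57 (40.4%), against 9.12% of all. AAGATGGC on either strand was present in 4 (7.02%), against 2.88% of all. TATAAA on either strand was present in 5 (8.77%), against 14.2% of all. Among 11859 other genes tested here that have a listed promoter, the shares were 21.2% for the pyrimidine run, 15.9% for CCGGAAG, 4.14% for AAGATGGC and 7.65% for TATAAA. The run did not have to begin at the annotated start, and the window printed for Rplp0 held none of the marked letters.

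Ribosomal protein genes took 1.68% and 1.25% of the summed nuclear-encoded reads of EdU+ nuclei (Fasn-R1812W, WT) and 1.03% and 1.16% of those of NeuN+ nuclei. Per nucleus, the median share was 0.906% and 0.946% in EdU+ nuclei and 0.873% and 1.01% in NeuN+ nuclei. The gates thus differed in the sums, in which the 2 EdU+ libraries lay above the 2 NeuN+ libraries, while their medians overlapped. The median nucleus had reads on 40 and 16 of the 86 members in the EdU+ libraries and on 47 and 53 in the NeuN+ libraries, the lowest number being in the shallowest library. Wells left out by the filter that had at least 20000 reads, with no minimum of genes, were also looked at. Their medians were 0.738% and 0.973% in the EdU+ libraries and 0.742% and 0.756% in the NeuN+ libraries.

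**Figure D1:**
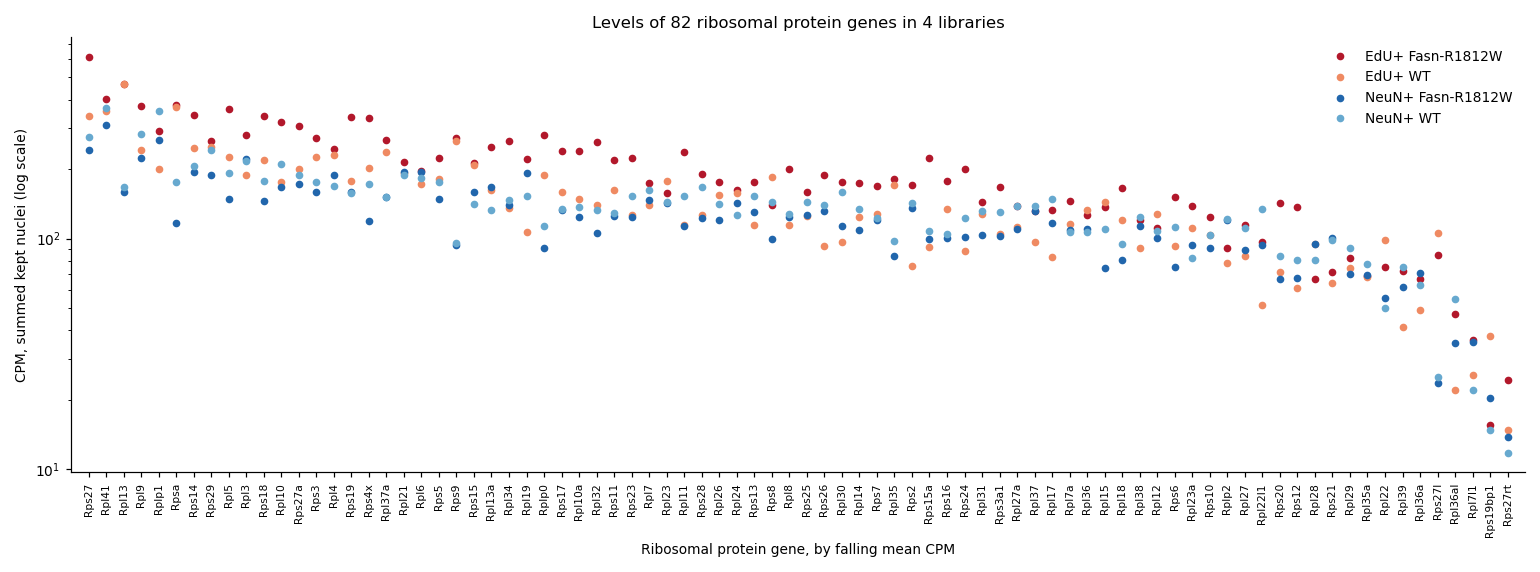
Levels of 82 of the 83 tested ribosomal protein genes in the 4 libraries, in CPM of the summed kept nuclei on a log scale, with genes by falling mean and 1 colour per library. Rpl13 stands at 469 and 466 in the EdU+ libraries and at 159 and 167 in the NeuN+ libraries.

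Among the 77 core proteins levels differed between genes in each library. Rps27, a small-subunit protein with a zinc finger, had the highest CPM of Fasn-R1812W EdU+ nuclei, 612. In both NeuN+ libraries Rpl41, a very short peptide of the large subunit, was highest, with 310 and 367 CPM. From the highest to the lowest core gene the CPM spanned 9.17-fold and 13.6-fold in the EdU+ libraries and 5.62-fold and 7.35-fold in the NeuN+ libraries. The 5 highest members together held 14.6% and 16.8% of all ribosomal protein reads in the EdU+ libraries and 12.3% and 13.3% in the NeuN+ libraries, so no few genes made up the family's share.

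Per kb of exon, which allows genes to be set against each other, Rplp1 was highest at 560 CPM per kb over the 4 libraries, followed by Rps27 (352), Rps29 (340), Rpl36 (311) and Rpl41 (307). Rplp1 is an acidic protein of the stalk to which elongation factors bind. Rplp0, the base of the same stalk, averaged 101 CPM per kb, and Rplp2, the partner of Rplp1 in the stalk, 49.6 CPM per kb. The lowest core genes were Rpl35a (20.1 CPM per kb) and Rps24 (20.5 CPM per kb). Exon length is the union of annotated exons. Across the 77 core genes, the order of log levels was alike within a gate (Pearson's r = 0.843 for the EdU+ pair and 0.914 for the NeuN+ pair), and less so across gates (0.698 to 0.784). These are correlations across genes, which are not independent replicates, and each pair shares the gene lengths.

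The testis- and muscle-associated paralogues Rpl10l, Rpl3l and Rpl39l were at or near 0. Rpl10l had reads only in NeuN+ WT nuclei (0.0288 CPM) and Rpl3l only in NeuN+ Fasn-R1812W nuclei (0.0142 CPM). Rpl39l reached 1.18 CPM in NeuN+ WT nuclei, 98.8% of it from 1 nucleus. The other 83 members passed the filter on low counts, and all later counts are over these 83. Several of them rest on few nuclei. In 11 members, 1 nucleus held over 20% of the reads of a library, among them Rpl7l1 (57.1% and 54.3% in the Fasn-R1812W and WT EdU+ libraries), Rpl22 (61.0% in WT EdU+ nuclei) and Rps27l (41.5% in Fasn-R1812W NeuN+ nuclei). How reads of paralogues, retrogenes and pseudogenes were shared out is not given in the sources used here, so values of Rpl36a and Rpl36al, Rps27 and Rps27rt, Rpl22 and Rpl22l1 and their like are uncertain.

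The first comparison asked how nuclei that had copied DNA differed from nuclei of mature neurons. Rpl13 and Rps9 were higher in EdU+ nuclei, and no member was lower. Rpl13 (chr8:123102350-123105244, plus strand, GRCm38), a large-subunit protein, had 469 and 466 CPM in EdU+ nuclei (Fasn-R1812W, WT) and 159 and 167 CPM in NeuN+ nuclei. Rps9 (chr7:3703993-3706897, plus strand), a small-subunit protein that helps keep decoding accurate, had 273 and 264 CPM in EdU+ nuclei and 94.0 and 95.7 CPM in NeuN+ nuclei. In both genes the 2 libraries of a gate lay close together and the gates did not overlap. The log2 fold change, EdU+ over NeuN+, was 1.49 (SE 0.31) for Rpl13 and 1.47 (SE 0.32) for Rps9, with adjusted p of 0.0362 and 0.0431 (edgeR's quasi-likelihood test on the 4 sums with gate and genotype as terms, Benjamini-Hochberg over all genes). Across all 17411 genes tested, 6.73% passed at an adjusted p under 0.05 (3.85% higher, 2.88% lower), against 2 of 83 members (both higher). At an unadjusted p under 0.05 there were 7 of 83 members, against 3602 of 17411 genes. The family was thus not called more often than genes at large.

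Rpl13 also differed when immune nuclei were set aside. In EdU+ nuclei outside the immune classes it stood at 403 and 455 CPM (Fasn-R1812W, WT), against the same 159 and 167 CPM in NeuN+ nuclei. The log2 fold change was then 1.40 (SE 0.37, adjusted p = 0.00581, edgeR), and it was the 1 member called of 83, where 12% of 17107 genes passed (5.59% higher, 6.38% lower). In oligodendrocyte precursor-like nuclei alone it had 443 and 496 CPM. Within the NeuN+ gate it had 179 and 192 CPM in granule-like nuclei, 221 and 137 CPM in interneuron-like nuclei and 143 and 138 CPM in CA1-like nuclei, each below every oligodendrocyte precursor-like value. Rpl13 had a read in 81.3% and 53.9% of EdU+ nuclei and in 63.1% and 66.6% of NeuN+ nuclei, and no nucleus held more than 7.72% of its reads. Its call was lost without either NeuN+ library, where the log2 fold change was 1.43 (without the Fasn-R1812W library) and 1.51 (without the WT library) and no member was called. It was kept in the other settings run.

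**Figure D2:**
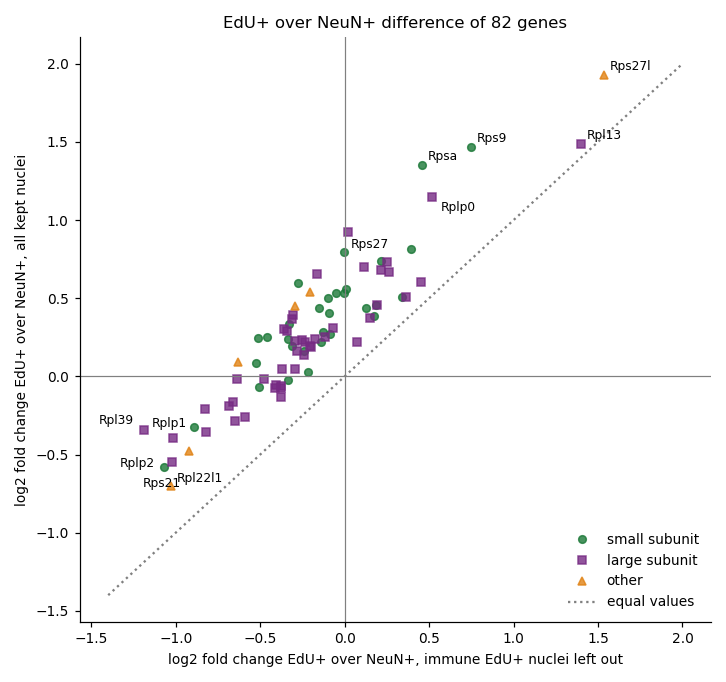
EdU+ over NeuN+ log2 fold change of 82 of the 83 tested members, with immune EdU+ nuclei left out on the horizontal axis and with all kept nuclei on the vertical axis, by kind of protein. Points lie above the line of equal values, and Rpl13 lies near it at 1.40 and 1.49.

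Other members with high values in EdU+ nuclei did not pass the test. Rps27l, a paralogue of Rps27 that p53 induces, had 85.0 and 105 CPM in EdU+ nuclei and 23.5 and 25.1 CPM in NeuN+ nuclei (log2 fold change 1.93, SE 0.49, adjusted p = 0.068, edgeR). The 2 gates did not overlap, and the value without immune nuclei was 1.53 (adjusted p = 0.117, edgeR). In oligodendrocyte precursor-like nuclei Rps27l had 58.3 and 104 CPM, and in granule-like nuclei 18.6 and 23.9 CPM. Its parent gene Rps27 had 612 and 341 CPM in EdU+ nuclei and 242 and 275 CPM in NeuN+ nuclei, and without immune nuclei its log2 fold change was -0.0012. Rpsa, which also serves as a laminin receptor, had 379 and 372 CPM in EdU+ nuclei and 117 and 176 CPM in NeuN+ nuclei (1.35, adjusted p = 0.0651). The value of Rpsa without immune nuclei was 0.46. Rps9 likewise came to 0.75 without them (SE 0.41, adjusted p = 0.294).

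At the other end stood the stalk proteins Rplp1 and Rplp2, with Rps21, Rpl17 and the paralogues Rpl22l1 and Rpl36al. Rplp1 had 293 and 199 CPM in EdU+ nuclei (Fasn-R1812W, WT) and 268 and 358 CPM in NeuN+ nuclei, so the gates overlapped. Without immune nuclei Rplp1 was at 128 and 184 CPM in EdU+ nuclei, below both NeuN+ libraries, with a log2 fold change of -1.01 (adjusted p = 0.0631). Rplp2 gave -0.55 with all EdU+ nuclei and -1.02 without the immune ones (adjusted p = 0.163). Rps21 gave -0.58 and -1.07 in the same order, and Rpl22l1 -0.70 and -1.03. The base of the stalk went the other way. Rplp0 had 281 and 188 CPM in EdU+ nuclei and 91.2 and 113 CPM in NeuN+ nuclei (1.15, adjusted p = 0.137, and 0.51 without immune nuclei). None of these passed the test.

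As a family, 61 of the 83 members had a positive EdU+ over NeuN+ value, with a median log2 fold change of 0.25 against -0.16 over all genes tested. Small-subunit genes had a median of 0.39 (27 of 31 positive) and large-subunit genes of 0.22 (30 of 46 positive). In both EdU+ libraries 38 of 83 members lay above both NeuN+ libraries (45.8%, against 30.2% of all genes at 10 CPM or more), and 3 of 83 lay below (3.61%, against 29.5%). With immune nuclei left out the median was -0.24 against -0.21 over all genes, and 23 of 83 values were positive. Then 11 members lay above (13.3%, against 28.1%) and 34 below (41.0%, against 29.1%). The family's median between gates was thus on the other side of 0 without 77 and 8 nuclei of the EdU+ libraries.

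Those immune nuclei were 22.1% of Fasn-R1812W EdU+ nuclei (77 of 348, exact binomial 95% interval 17.9 to 26.9%) and 4.79% of WT EdU+ nuclei (8 of 167, 2.09 to 9.22%). They held 59.6% of the ribosomal protein reads of the Fasn-R1812W EdU+ library and 17.4% of those of the WT EdU+ library. Leukocyte-like nuclei gave 52.3% and 14.8% of the ribosomal protein reads from 18.0% and 4.16% of all reads. With wells of at least 20000 reads and 300 genes, immune nuclei numbered 87 of 376 and 47 of 352. Leukocyte-like nuclei then gave 52.2% and 9.40% of the ribosomal protein reads, and microglia-like nuclei 7.24% and 10.6%, so in WT the larger share lay in the microglia-like class. The intervals cover counting error only.

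The share of reads per nucleus shows where the family's reads were. In leukocyte-like EdU+ nuclei of Fasn-R1812W mice (n = 45) the median share was 2.27% with a range of 0.148 to 15.9%, and 19 of them were over 3%. In those of WT mice (n = 5) the median was 3.27% with a range of 2.34 to 6.32%, and 4 were over 3%. Over the 2 EdU+ libraries 4 other nuclei were over 3%, and in the NeuN+ libraries 0 were. Microglia-like nuclei had medians of 0.981% (n = 32) and 1.69% (n = 3), neuroblast-like nuclei 1.01% (n = 15) and 1.60% (n = 8), and oligodendrocyte precursor-like nuclei 0.793% (n = 233) and 0.882% (n = 133), each with Fasn-R1812W before WT. With this filter the leukocyte-like class had the highest median in both EdU+ libraries. Thinned to 50000 reads, the leukocyte-like medians were 2.17% and 3.29%. The summed leukocyte-like share was 4.89% and 4.45% before thinning and 3.44% and 4.00% after it. With the relaxed filter, which brought 9 and 16 more leukocyte-like nuclei, the medians were 1.66% and 1.28%. Of the WT classes, microglia-like (1.31%, n = 26) and neuroblast-like nuclei (1.44%, n = 15) then had medians above the leukocyte-like one (n = 21), so the ranking in WT was lost, while in Fasn-R1812W it held.

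The summed share of mitochondrially encoded genes was 1.41% and 1.75% in leukocyte-like EdU+ nuclei (Fasn-R1812W, WT), against 0.484% and 0.230% in oligodendrocyte precursor-like nuclei. In microglia-like nuclei it was 0.515% and 1.47%, so in WT, with 3 microglia-like and 5 leukocyte-like nuclei, it was near that of leukocyte-like nuclei. The summed ribosomal protein share in WT was 1.61% in microglia-like and 4.45% in leukocyte-like nuclei. With the relaxed filter (26 and 21 WT nuclei) the mitochondrial shares were 0.577% and 0.929%. The ribosomal protein shares were then 1.58% and 2.20%, so both shares were higher in leukocyte-like nuclei. Within the 45 leukocyte-like nuclei of Fasn-R1812W mice Spearman's rho between a nucleus's ribosomal protein share and its mitochondrial share was 0.522, while among the 233 oligodendrocyte precursor-like nuclei it was 0.109. In Fasn-R1812W microglia-like nuclei it was 0.089 (n = 32) and in neuroblast-like nuclei -0.432 (n = 15). In granule-like nuclei it was 0.613 (n = 89, Fasn-R1812W) and 0.532 (n = 153, WT). Between the ribosomal protein share and the reads of a nucleus, rho was 0.581 in the Fasn-R1812W leukocyte-like nuclei. It was 0.128 in oligodendrocyte precursor-like, -0.182 in microglia-like and 0.0143 in neuroblast-like nuclei of that library. In granule-like nuclei it was 0.316 and 0.428 (Fasn-R1812W, WT). These are descriptions over nuclei of 1 library, which share a preparation. The part of depth, or of mitochondrial or attached cytoplasmic RNA, in these values was not tested.

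**Figure D3:**
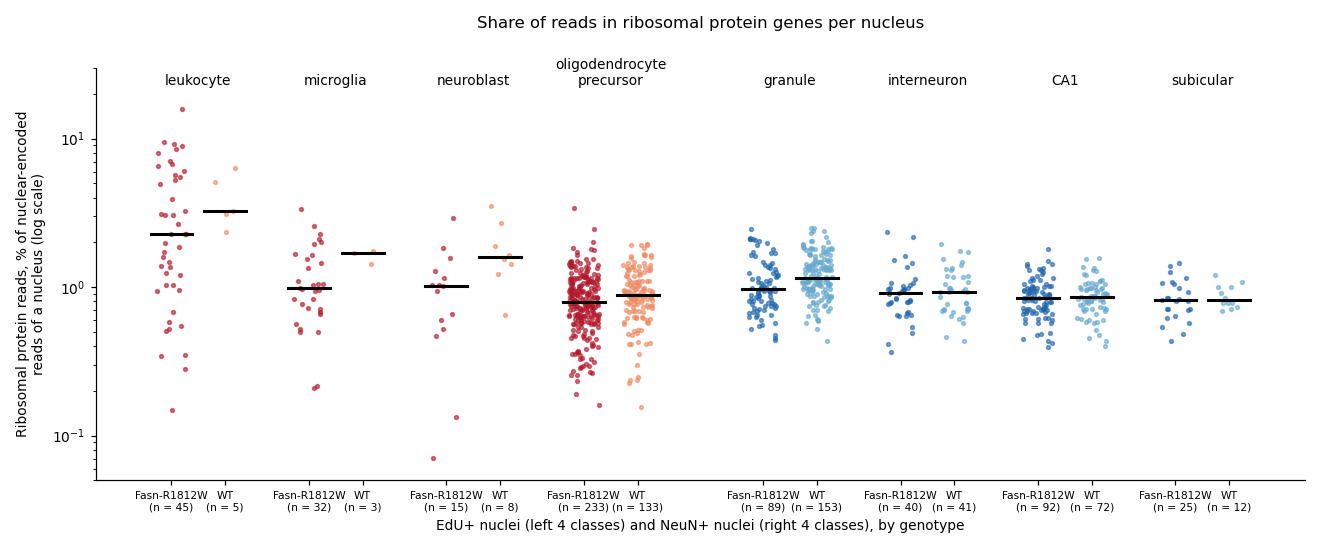
Share of nuclear-encoded reads on ribosomal protein genes in each kept nucleus (percent, log scale), by class and library, with medians. Leukocyte-like EdU+ nuclei have medians of 2.27% (Fasn-R1812W) and 3.27% (WT), above those of the other classes shown.

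Immune EdU+ nuclei were next compared with all other EdU+ nuclei, with the 2 libraries as blocks. Members that were higher in immune nuclei included Rpsa, Rps27 and Rps19, and no member was lower. The immune classes were defined by marker genes that include no member. Of all 14689 genes tested, 2.46% were called (1.57% higher, 0.892% lower), against 4 of 83 members. At an unadjusted p under 0.05 there were 24 of 83 members, against 1647 of the 14689 genes. Rpsa (chr9:120127689-120132369, plus strand) had 1023 and 1530 CPM in immune nuclei (Fasn-R1812W, WT) and 130 and 295 CPM in the other EdU+ nuclei (log2 fold change 3.08, SE 0.84, adjusted p = 0.0148, edgeR). For each of Rpsa, Rps27 and Rps19 both immune sums lay above both sums of other nuclei. Rps27 (chr3:90212522-90213651, minus strand) had 1613 and 1087 CPM in immune nuclei and 226 and 292 CPM in the others (2.78, adjusted p = 0.024). Rps19 (chr7:24884371-24889806, plus strand), a small-subunit protein whose human gene is mutated in Diamond-Blackfan anaemia, had 851 and 1003 CPM in immune nuclei and 138 and 123 CPM in the others (3.23, SE 0.96, adjusted p = 0.0368).

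Across the family 82 of 83 values were positive, the exception being Rps19bp1, which encodes a protein that binds Rps19 (-1.20, SE 9.50). The median log2 fold change was 2.12 against -1.92 over all genes tested, with a WT immune sum of 8 nuclei. With the relaxed filter, which gave 47 WT immune nuclei, the medians were 1.78 for the members and -1.05 for all genes. With a floor of 10 CPM they were 1.98 and -1.58, and with no scaling 1.71 and -2.33. The part of genes with few reads in the all-gene median was not tested. With DESeq2 size factors the medians were 1.61 for the members and -2.42 for all genes. The 4 calls were lost with those size factors, with the relaxed filter, with thinned nuclei, with a floor of 10 CPM and with DESeq2's Wald test, under each of which 0 members were called. The median of the members was positive in each of these settings.

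Leukocyte-like nuclei against other EdU+ nuclei gave a median of 2.56 (all genes -2.30), and 3 members were called, among them Rpsa (3.60, adjusted p = 0.0051, edgeR) and Rps27 (3.12, adjusted p = 0.018), where 1.16% of 14357 genes passed (0.864% higher, 0.293% lower). With the relaxed filter 0 members were called, with a median of 2.21 (all genes -1.92). Microglia-like nuclei against the same nuclei gave a median of 0.29 (all genes -3.24), with 45 of 83 values positive. There 0 members were called, where 8.42% of 13756 genes passed (0.523% higher, 7.89% lower). Also, 0 members had an unadjusted p under 0.05, against 2964 genes. This comparison rests on 3 WT nuclei. With the relaxed filter the median was 0.89 (all genes -2.67) with 64 of 83 positive. The difference between the 2 immune classes was itself not tested. In the sums, 79 of 83 members were higher in leukocyte-like than in oligodendrocyte precursor-like nuclei in both libraries, and 0 were lower in both. For microglia-like against oligodendrocyte precursor-like nuclei these counts were 27 and 19. Such counts of members between class sums, here and below, were not set against all genes, and the WT leukocyte-like class held 5 nuclei. The leukocyte-like class included neutrophil genes (S100a8, S100a9) and genes of cytotoxic lymphocytes (Nkg7, Gzma) among its leading genes, and the members' values were not split by these kinds of cell.

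Single members differed in their values in leukocyte-like nuclei. Rps27 had 2263 and 1226 CPM there (Fasn-R1812W, WT) and 195 and 265 CPM in oligodendrocyte precursor-like nuclei. Rplp0 had 826 and 1103 CPM there and 124 and 107 CPM in oligodendrocyte precursor-like nuclei. Rpl13 had 861 and 924 CPM there and 443 and 496 CPM in oligodendrocyte precursor-like nuclei (1.48 against all other EdU+ nuclei, adjusted p = 0.533). Rpl10a, Rpl9 and Rpl4 also had low immune values, with log2 fold changes of 0.37, 0.89 and 0.98. Rpl10a had 493 and 70.3 CPM in leukocyte-like nuclei (Fasn-R1812W, WT) and 177 and 139 CPM in oligodendrocyte precursor-like nuclei, so its direction differed between libraries. Rpl10, a large-subunit protein of the X chromosome, and Rpl35 had values of 2.99 each (adjusted p = 0.077 and 0.218). Rpl5 and Rpl11, which bind Mdm2 when ribosome assembly fails, had 2.04 and 2.52 (adjusted p = 0.428 and 0.397), and Rps6, the substrate of the kinases of that name, had 2.58 (adjusted p = 0.502).

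**Figure D4:**
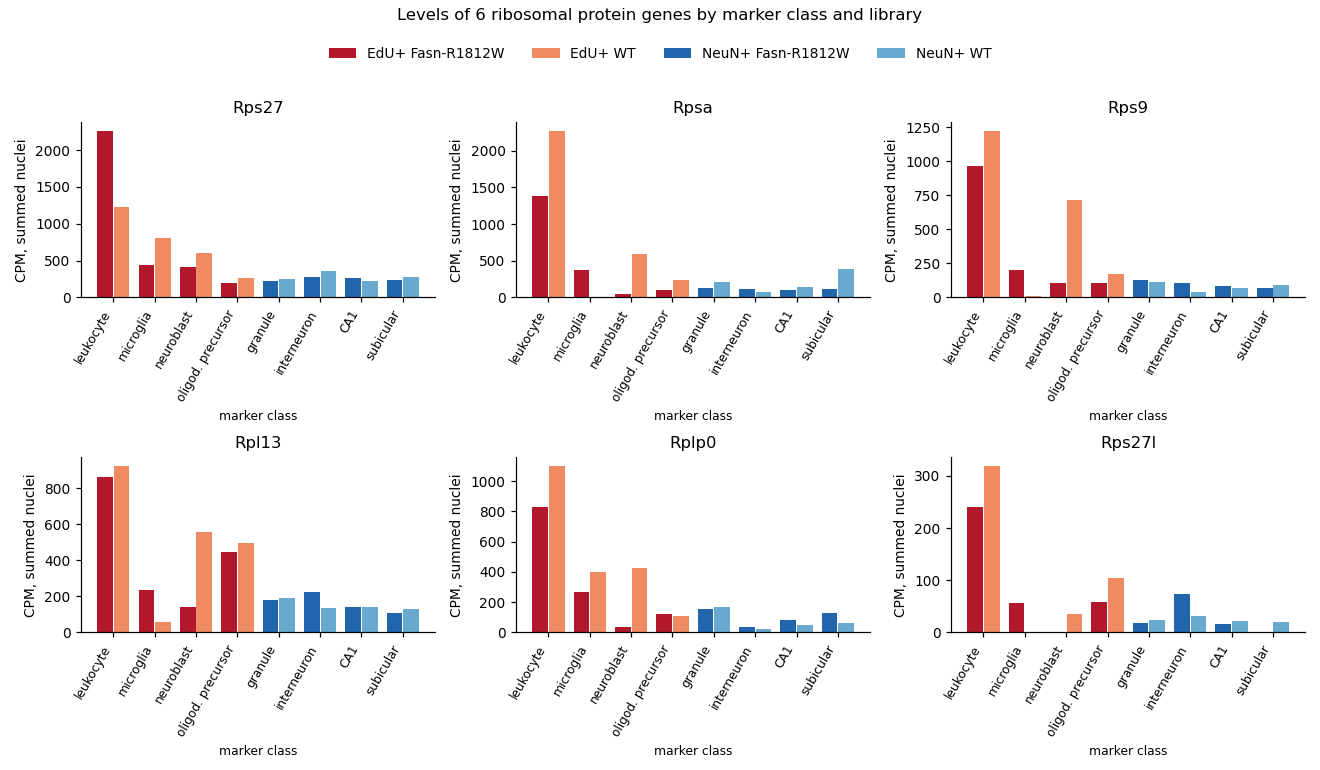
Levels of 6 ribosomal protein genes by class of nucleus and library, as bars of CPM over summed nuclei on a linear scale from 0. All 6 are highest in leukocyte-like EdU+ nuclei, Rpl13 stands at 443 and 496 CPM in oligodendrocyte precursor-like nuclei, and among NeuN+ classes Rplp0 is lowest in interneuron-like nuclei.

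Neuroblast-like EdU+ nuclei, which express genes of young neurons, were set against oligodendrocyte precursor-like nuclei. No member was called from 15 and 8 neuroblast-like nuclei, where 0.374% of 12823 genes passed (0.0858% higher, 0.289% lower, edgeR). Also, 0 members had an unadjusted p under 0.05, against 347 genes. The median of the 83 values was 0.35 with 50 positive, against -2.47 over all genes. The members' median was 0.24 with no scaling, 0.14 with the relaxed filter and -0.045 with thinned nuclei. With a floor of 10 CPM it was 0.25, against -1.99 over all genes. Rpl13 and Rplp0 had 138 and 34.5 CPM in the Fasn-R1812W neuroblast-like nuclei and 557 and 429 CPM in the WT ones, so the libraries differed widely. In both libraries 28 members were higher in neuroblast-like nuclei and 12 were lower.

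Within the NeuN+ gate, Rplp0 was lower in interneuron-like than in granule-like nuclei. Rplp0 (chr5:115559467-115563727, plus strand) had 35.4 and 19.5 CPM in interneuron-like nuclei (Fasn-R1812W, WT) and 152 and 166 CPM in granule-like nuclei. In CA1-like nuclei it had 81.7 and 48.8 CPM, between the other classes in both libraries. The 2 interneuron-like values lay below the 4 others. The log2 fold change, interneuron over granule, was -2.65 (SE 0.46, adjusted p = 0.00316, edgeR with library as a block), and it ranged from -2.74 to -1.86 over the settings run, with the call kept in each. It was the 1 member called of 83 (0 higher, 1 lower), where 6.49% of 15748 genes passed (2.75% higher, 3.74% lower). Rplp0 against CA1-like nuclei gave -1.28 for interneuron-like nuclei (adjusted p = 0.15) and 1.37 for granule-like nuclei (adjusted p = 0.204). Its stalk partners were not called. Rplp1 had 233 and 326 CPM in interneuron-like nuclei and 330 and 419 CPM in granule-like nuclei (-0.47, adjusted p = 0.347), and Rplp2 137 and 148 CPM against 115 and 127 CPM (0.19, adjusted p = 0.852).

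Among the named neuronal classes, granule-like nuclei had the highest summed shares on ribosomal protein genes, 1.23% and 1.33% (Fasn-R1812W, WT), against 0.965% and 0.906% in CA1-like and 1.03% and 1.08% in interneuron-like nuclei. Medians per nucleus were 0.968% (n = 89) and 1.16% (n = 153) for granule-like nuclei, and 0.844% (n = 92) and 0.853% (n = 72) for CA1-like nuclei. Interneuron-like nuclei had 0.908% (n = 40) and 0.928% (n = 41), and subicular-like nuclei 0.821% (n = 25) and 0.813% (n = 12). The class order granule, interneuron, CA1, subicular was the same in the 2 libraries, with ranges over nuclei that overlapped widely. The summed shares of mitochondrially encoded reads were 0.290% and 0.313% in granule-like, 0.153% and 0.176% in interneuron-like, 0.0933% and 0.120% in CA1-like and 0.0468% and 0.203% in subicular-like nuclei. In both libraries the granule-like sum was highest, while the subicular-like sum was lowest in Fasn-R1812W and second highest in WT, and per nucleus the Fasn-R1812W median was 0.0697% in interneuron-like and 0.0625% in granule-like nuclei. Their part was not tested.

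No member passed the test of granule-like over CA1-like nuclei, where 1.75% of 15748 genes did (0.895% higher, 0.851% lower, edgeR). However, 79 of 83 values were positive, with a median of 0.47 (all genes -0.00075). At an unadjusted p under 0.05 there were 14 of 83 members, against 1567 of the 15748 genes. In both libraries 63 members were higher in granule-like nuclei and 2 were lower. Rps4x, the X-linked small-subunit protein, had 172 and 192 CPM in granule-like nuclei and 76.6 and 101 CPM in CA1-like nuclei (1.04, adjusted p = 0.222). Rpl4, of the large subunit, had 272 and 229 CPM in granule-like nuclei and 192 and 98.5 CPM in CA1-like nuclei (0.86, adjusted p = 0.297). Rpl41 and Rps27 had values of 0.05 and -0.05.

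No member passed in interneuron-like over CA1-like nuclei either, where 4.22% of the same genes did (1.58% higher, 2.64% lower). At an unadjusted p under 0.05 there were 4 of 83 members, against 2320 genes. The median was 0.11 (all genes -0.05), with 49 of 83 positive. Interneuron-like over granule-like nuclei had a median of -0.35 (all genes -0.08), with 19 of 83 positive, and in both libraries 11 members were higher and 43 lower. Rpl4 was next to Rplp0 there, with 138 and 112 CPM in interneuron-like and 272 and 229 CPM in granule-like nuclei (-1.05, SE 0.32, adjusted p = 0.0689). Rps27 had 275 and 364 CPM in interneuron-like nuclei and 219 and 248 CPM in granule-like nuclei, a value of the other sign (0.41, adjusted p = 0.489).

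The genotype was compared over both gates and within each gate. Over both gates 0 of 83 members passed the test between Fasn-R1812W and WT nuclei, where 1 of 17411 genes passed (0.00574%, edgeR). The smallest unadjusted p of a member was 0.083, for Rpl19, and 0 members were under 0.05 (276 genes were). DESeq2's Wald test also called 0 members. The median was 0.16 with 65 of 83 positive, against 0.06 over all genes, and -0.18 without immune nuclei. Within a gate each genotype had 1 library, so the values there have no test and no replicate check.

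In NeuN+ nuclei, of 83 members 0 differed by 2-fold or more in either direction, where 3.43% of 11264 genes were at least 2-fold higher in Fasn-R1812W and 3.35% at least 2-fold lower. The median log2 ratio was -0.17 (all genes 0.01), with 65 members lower in Fasn-R1812W. The lowest were Rpl36al (-0.63), Rpsa (-0.60) and Rps6 (-0.59), and the highest Rpl7l1 (0.66) and Rps19bp1 (0.43), both with low levels. Granule-like nuclei alone gave a median of -0.14, CA1-like nuclei 0.04 and interneuron-like nuclei -0.05. Granule-like nuclei, the class with the highest share, were 89 of 301 nuclei in the Fasn-R1812W library and 153 of 314 in the WT library.

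In EdU+ nuclei 10 members were at least 2-fold higher and 1 at least 2-fold lower in Fasn-R1812W, where 18.5% and 13.7% of 11955 genes were. The median log2 ratio was 0.51 (all genes 0.06), with 75 members higher in Fasn-R1812W. The highest were Rps15a (1.35), Rps24 (1.24), Rps12 (1.23) and Rps2 (1.21), and the lowest was Rps19bp1 (-1.16). Leaving out immune nuclei gave 1 member at least 2-fold higher and 4 at least 2-fold lower, where 16.9% and 14.3% of 11447 genes were, and a median of -0.19 with 54 members lower. Rps27, for one, had 612 CPM in Fasn-R1812W and 341 CPM in WT EdU+ nuclei, but 226 and 292 CPM once immune nuclei were left out. With no scaling factor the median over all EdU+ nuclei was 0.44, and the values by class were also unscaled. In oligodendrocyte precursor-like nuclei the median was -0.23 (all genes 0.0040), and -0.090 with the relaxed filter (all genes 0.043). In neuroblast-like nuclei it was -0.91 (all genes 0.26), and -0.74 with the relaxed filter (all genes 0.11). In leukocyte-like nuclei it was 0.28 (all genes 1.75), and with the relaxed filter 1.18 (all genes 0.90) with 78 of 83 members higher in Fasn-R1812W. In microglia-like nuclei it was 0.66 (all genes 5.22), and -0.30 with the relaxed filter (all genes 0.66). The class medians thus differed in sign, from as few as 3 WT nuclei. With the main filter the members' median lay below that of all genes in each of these classes. With the relaxed filter it lay above in leukocyte-like nuclei only. The EdU+ libraries also differed in depth, which cannot be told apart from genotype, and thinned to 50000 reads per nucleus the median over all EdU+ nuclei was 0.14.

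**Figure D5:**
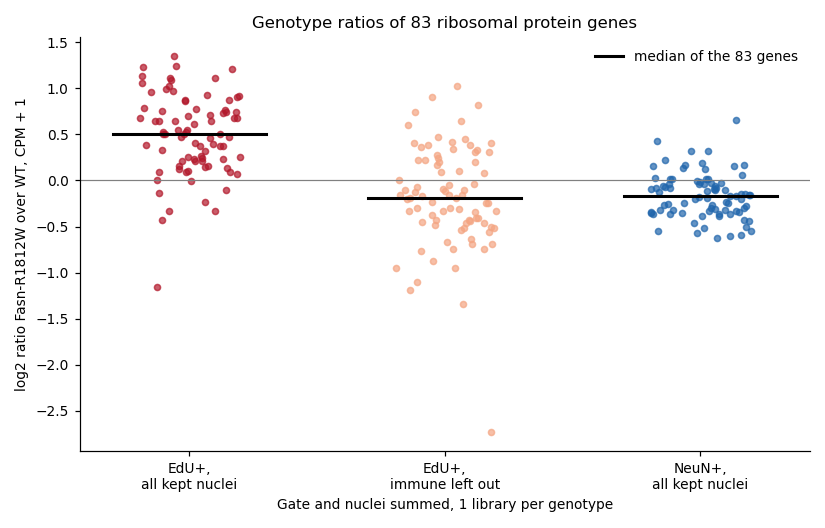
Log2 ratio of Fasn-R1812W over WT for the 83 members in EdU+ nuclei, in EdU+ nuclei without the immune classes and in NeuN+ nuclei. The medians are 0.51, -0.19 and -0.17, each from 1 library per genotype.

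Other genes of the translation machinery were followed as lists, to be read against the 6.73% of all genes called between gates and the 2.46% called between immune and other EdU+ nuclei. Of 18 elongation factors and other genes with TOP messages, 18 had a positive EdU+ over NeuN+ value with a median of 0.44, and 0 passed the test. Without immune nuclei 11 were positive with a median of 0.07, and in immune over other EdU+ nuclei 16 were positive with a median of 1.56. For 40 genes of ribosome assembly and ribosomal RNA synthesis the EdU+ over NeuN+ median was 0.03 with 0 called. In immune over other EdU+ nuclei their median was -1.48 (all genes -1.92), below that of the ribosomal proteins they assemble. Their summed share of reads was 0.298% and 0.183% in leukocyte-like nuclei (Fasn-R1812W, WT). In EdU+ nuclei outside the immune classes it was 0.161% and 0.193%, so the direction differed between libraries. In microglia-like nuclei the share was below that of these other nuclei in Fasn-R1812W and above it in WT. The part of genes with few reads in the median was not tested. Of 23 other initiation factors 0 were called between gates. Eif4a1, the RNA helicase of the cap-binding complex, was lower in interneuron-like than in granule-like nuclei (-1.37, SE 0.32, adjusted p = 0.0207), the 1 called of 23, where 6.49% of all genes were called (3.74% lower). For 78 mitochondrial ribosomal proteins the median between gates was -0.13 and for 66 nuclear-encoded respiratory chain genes -0.27, with 0 called in each. Ndufs7, a subunit of complex I, was higher in interneuron-like than in granule-like nuclei (1.18, adjusted p = 0.027), the 1 called of 65, where 2.75% of all genes were higher. The 9 tested rows named as ribosomal protein pseudogenes had a median of -0.14 between gates and 0 calls. Of 17 genes that host small nucleolar RNAs 1 was in the table, Snhg11, which was lower in EdU+ nuclei (-4.46, SE 0.46, adjusted p = 0.00405).

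The genes whose levels were most like those of the family were ranked by Pearson's r with the mean log2 CPM of the core members over class sums. Over 10 class sums of the EdU+ gate they were Slc1a5 (0.928), Ptprcap (0.915), Anxa2 (0.912), Gvin1 (0.912) and Ahnak (0.911), of 11275 genes. Over 8 class sums of the NeuN+ gate they were Lrrc42 (0.971), Rpusd3 (0.969), Gm37060 (0.965), Ap3b1 (0.958) and Dhx40 (0.943), of 11134 genes. The points share their library and class sizes, and the ranking is a description.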

How the data were processed

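Single nuclei of the mouse hippocampus were profiled by Smart-seq2, per the labels' protocols. The deposited files hold counts of reads per gene and well, made by the authors with Trimmomatic 0.36, STAR 2.5.3a and the GRCm38.p5 genome, per the submitters' processing notes. The sources used here name neither the counter nor its annotation or use of strand, so reads of overlapping or antisense genes cannot be told apart. Symbols came from a table of Ensembl gene names, which matched 25395 of 25567 rows, positions and exon lengths (the union of exons) from the GENCODE annotation of GRCm38.p6, and promoters from RefSeq. The design text gives slightly fewer nuclei per library than the wells in the tables. Embryonic nuclei of the design were not analysed here.

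Mitochondrially encoded genes were kept out of library totals. Nuclei with at least 50000 reads and 1000 genes were kept, and for this filter and for thinning mitochondrially encoded reads were counted in. An EdU+ nucleus was immune-like with at least 4 of 37 immune markers at 50 CPM or more. With at least 6 of 13 microglia markers it was microglia-like, and otherwise leukocyte-like. All other nuclei took the class with the highest fraction of its markers at that level, at least 3, and ties were left unassigned. For NeuN+ nuclei microglia-like was among these classes. In the Fasn-R1812W and WT EdU+ libraries 3 and 1 nuclei had exactly 4 immune markers, and 8 and 0 had 3. The members, lists and class rule were chosen with earlier results of these data known.

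Counts were summed per library or per library and class and tested with edgeR 4.0.16 (quasi-likelihood test, TMM scaling, filterByExpr) on R 4.3.3, with Benjamini-Hochberg adjustment over all genes tested and 0.05 as the threshold. Gate and genotype were fitted together over the 4 libraries, leaving 1 residual degree of freedom, and class contrasts had library as a block. Within-gate genotype ratios used TMM-scaled CPM plus 1 CPM, over genes at a mean of at least 10 CPM. Genotype ratios within a class used CPM plus 1 CPM without a scaling factor, with the same minimum. Named members were the 6 core genes with the highest CPM, those at either end of the gate and immune contrasts, the paralogues and a fixed set, and others outside that rule (Rps29, Rpl36, Rpl35a, Rps24, Rpl22, Rpl19, Rps15a, Rps12, Rps2 and the near-0 paralogues) were named after their values were seen. In simulated gate data of 18415 genes, the fit recovered 100% of 4-fold higher, 40% of 2-fold higher, 34% of 2-fold lower and 98% of 4-fold lower genes, with 5 false calls. The simulated libraries were drawn from 1 common mean per gene with a fixed spread, and only genes with many expected reads were altered. They held no difference in cell make-up, so these rates do not give the recovery or false calls in the real libraries. Alternatives were other scaling (DESeq2 1.42.0 size factors, none), other filters, thinning to 50000 reads, DESeq2's Wald test, leaving out immune nuclei and leaving out each library. 1 member is not reported here by name. Reads without molecular identifiers are not independent molecules. The intervals are on counts of nuclei from 1 library each and cover counting error only.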

Additional observations from a re-analysis of the deposited data

Results flagged for a closer look

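The median log2 ratio of the 83 ribosomal protein genes, Fasn-R1812W over WT, was 0.51 in EdU+ nuclei and -0.17 in NeuN+ nuclei, opposite in direction between the gates. With 1 library per gate and genotype, the difference was not tested. Without immune nuclei the EdU+ value was -0.19, on the same side of 0 as the NeuN+ value.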

How the results depend on the processing

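No paired analysis was possible because, by replicate number, each group holds 1 library whose label carries none; classes within a library were compared with library as a block. Between gates, the number of members called (2) was 4 with DESeq2 size factors, 5 with no scaling, 6 with DESeq2's Wald test, 1 with thinned nuclei, 1 without immune nuclei under either filter, and 0 to 13 when 1 library was left out (0 without either NeuN+ library, 6 without the Fasn-R1812W and 13 without the WT EdU+ library). The median (0.25) was 0.051 with thinned nuclei, -0.24 without immune nuclei, -0.15 without them under the relaxed filter, and 0.022 to 0.47 with 1 library left out. The genotype median (0.16) was -0.059 with thinned nuclei, -0.18 without immune nuclei and -0.21 without them under the relaxed filter. In EdU+ nuclei the genotype median (0.51) was 0.14 with thinned nuclei, -0.19 without immune nuclei and -0.25 without them under the relaxed filter, and the members at least 2-fold apart (11) numbered 4, 5 and 6 in the same order.

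Of the 4 members called in immune over other EdU+ nuclei, 2 passed with no scaling, and the number was 0 with DESeq2 size factors, the relaxed filter, thinned nuclei, a floor of 10 CPM, the Wald test, leukocyte-like nuclei under the relaxed filter, and microglia-like nuclei under either filter. The median (2.12) was 1.61 with size factors, 1.71 with no scaling, 1.78 with the relaxed filter, 1.63 thinned, 1.98 with the floor, 1.61 by the Wald test, 2.56 for leukocyte-like nuclei, 0.29 for microglia-like nuclei and 0.89 for those under the relaxed filter, and 1.39 to 1.83 within 1 library. The neuroblast-like median (0.35) was 0.24 with no scaling, 0.14 with the relaxed filter and -0.045 thinned. In interneuron-like over granule-like nuclei 2 members passed with no filter on low genes and by the Wald test. The granule-like over CA1-like median (0.47) was 0.34 to 0.57 with 1 library left out. The cause of these shifts was not tested. The settings without immune nuclei under the relaxed filter, and those for single immune classes, were chosen after seeing the data. Filters of 100000 reads and 2000 genes were not run for EdU+ nuclei, where they leave fewer than 10 nuclei in a sum. Depth limits the WT EdU+ values most, where the median nucleus had reads on 16 members.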
